A study of Mus musculus with 2 samples.

Results

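The sodium-potassium pump of the kidney was examined through 7 genes, the beta subunits Atp1b1, Atp1b2 and Atp1b3 and the FXYD regulators Fxyd1, Fxyd2, Fxyd4 and Fxyd5. They were chosen by name from the pump's gene families, with earlier results of these data known. All 7 were found among the 43346 genes of the tables. The RNA was polyadenylated RNA from kidney of 1 female C57BL/6J mouse aged 10 weeks, with no treatment or genetic change given in the labels. The tissue was sequenced as 2 libraries, which the labels call technical replicates 1 and 2 of biological replicate 1; the second was made in a later year than the first. They are called library 1 and library 2 here. There is 1 group and no second animal, so no SD and no test below describes the spread between mice. Each SD is the spread between the 2 libraries, and each test compares the 2 libraries against counting error only.

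The pump moves sodium out of the cell and potassium into it at the cost of ATP, and in kidney tubules it sits in the basolateral membrane and drives the reabsorption of sodium. Each pump holds a glycosylated beta subunit, which is needed for folding and delivery to the membrane, and the pump can also carry a small FXYD protein that tunes its affinity for ions or its rate. Atp1b1 encodes the beta subunit typical of kidney epithelium. Atp1b2 was first described as an adhesion molecule on glia, and Atp1b3 encodes a widely expressed beta subunit. Fxyd2 encodes the gamma subunit, the FXYD protein known best from kidney. Fxyd1 encodes phospholemman, known from heart and skeletal muscle, Fxyd4 encodes the corticosteroid hormone-induced factor of the collecting duct, and Fxyd5 encodes dysadherin.

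The features that define the 2 families can be read in the coding sequences of the most abundant transcripts. Sequences, coordinates and transcript names are from the GENCODE M21 annotation of mouse assembly GRCm38, the assembly that the deposited tables call mm10. For the beta subunits the capitals mark the codons of the first N-glycosylation sequon, an asparagine followed by any residue other than proline and then serine or threonine, with coding sequence on each side.
Atp1b1: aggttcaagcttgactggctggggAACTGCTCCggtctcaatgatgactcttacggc
Atp1b2: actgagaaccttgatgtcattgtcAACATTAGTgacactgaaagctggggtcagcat
Atp1b3: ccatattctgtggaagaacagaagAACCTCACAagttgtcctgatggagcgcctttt
The marked codons lie on the minus strand at chr1:164441544-164441552 in exon 4 of 6 of Atp1b1, at chr11:69603059-69603067 in exon 3 of 7 of Atp1b2, and at chr9:96340355-96340363 in exon 4 of 7 of Atp1b3. The translated Atp1b1 transcript held 3 such sequons, that of Atp1b2 held 9 and that of Atp1b3 held 2. For the FXYD genes the capitals mark the codons of the motif that names the family.
Fxyd1: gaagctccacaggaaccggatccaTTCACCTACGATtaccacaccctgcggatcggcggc
Fxyd2: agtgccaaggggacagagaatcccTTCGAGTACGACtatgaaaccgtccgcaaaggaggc
Fxyd4: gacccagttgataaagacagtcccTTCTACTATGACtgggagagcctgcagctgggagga
Fxyd5: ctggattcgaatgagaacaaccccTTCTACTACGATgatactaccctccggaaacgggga
In each of the 4 an exon junction interrupts the motif after its first 10 bases, so that the aspartate codon is split between neighbouring exons. The motif falls in exons 3 and 4 of Fxyd1 (minus strand, chr7:31053473-31053902, intron included), exons 2 and 3 of Fxyd2 (plus strand, chr9:45408135-45408301), exons 4 and 5 of Fxyd4 (minus strand, chr6:117934499-117935018) and exons 7 and 8 of Fxyd5 (minus strand, chr7:31035282-31035395). The same junction position was found in Fxyd3, Fxyd6 and Fxyd7, and so in 7 of the 7 FXYD genes searched. The motif begins at codon 17 of Fxyd2 and at codon 135 of Fxyd5, whose coding sequence of 178 codons is the longest of the 4 members. Aligned translations of the beta subunits were 43.8% identical between Atp1b1 and Atp1b2, 38.7% between Atp1b1 and Atp1b3 and 49.6% between Atp1b2 and Atp1b3. Those of the FXYD members ranged from 37.1% between Fxyd4 and Fxyd5 to 50% between Fxyd1 and Fxyd2, and no member shared a stretch at 95% identity with another member.

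The libraries held 28263730 and 20720537 expected counts, the estimated numbers of reads assigned to genes. Levels are given as TPM, a unit of transcript abundance that divides counts by transcript length and scales each library to the same sum. Mitochondrial genes and 11 nuclear copies of them accounted for 74.5% of the TPM sum in library 1 against 36.5% in library 2, which leaves less of that sum to every other gene in library 1. Kidney tubule markers were present in both libraries: the 4 proximal tubule markers summed to 278 and 3992 TPM and the 3 thick ascending limb markers to 783 and 3221 TPM. The 3 neuron markers summed to 0.09 and 0.25 TPM, with 1 of them at 0 in both.

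Atp1b1 was the leading beta subunit in both libraries. It stood at 888.81 TPM in library 1, from 65520 counts, and at 1210.72 TPM in library 2, from 47251 counts, a mean of 1050 ± 228 TPM (SD, n = 2). This placed it at rank 19 in library 1 and rank 43 in library 2 among 21461 protein-coding genes. Mitochondrial genes and their nuclear copies were left out of this ranking. Atp1b1 lies on chromosome 1 from 164437109 to 164458355 on the minus strand, and its main transcript shares 384 bases with Nme7, a gene on the opposite strand. Nme7 had 291 and 236 counts. Whether reads were counted by strand was not stated, so reads of the 2 genes in that stretch cannot be told apart.

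Atp1b3 came next among the beta subunits, at 72.05 and 75.79 TPM from 3998 and 2250 counts, a mean of 73.9 ± 2.64 TPM (SD, n = 2). It had the smallest relative difference in TPM of the 7 members, with library 2 at 1.05 times library 1. An 805-base stretch of its main transcript, 40.4% of its length, matches the processed pseudogene Gm1848 on chromosome X at 96.4% identity. Gm1848 was listed at 0 counts in both libraries, so the reads assigned to Atp1b3 remain uncertain to the extent that the copy could share them.

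Atp1b2 was the least abundant beta subunit, at 3.96 TPM in library 1 and 14.59 TPM in library 2, from 297 and 524 counts. Its mean was 9.28 ± 7.52 TPM (SD, n = 2). The 4 glia and Schwann cell markers summed to 0.84 and 2.40 TPM, and 1 of the 4 reached 1 TPM, in library 2. Their part in the Atp1b2 level was not tested.

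Fxyd2 was the leading FXYD gene by a wide margin, and it was also the member whose level differed most between the libraries in absolute terms. Library 1 gave 83.55 TPM from 1134 counts and library 2 gave 2914.84 TPM from 21155 counts. Its mean of 1499 TPM therefore carried an SD of 2002 TPM (n = 2). It ranked 489 in library 1 and 9 in library 2 among the same protein-coding genes, mitochondrial genes and their copies left out.

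The other FXYD members were low, and in library 1 they rested on few reads. Fxyd5 stood at 0.83 TPM from 9 counts and at 20.37 TPM from 212 counts. Fxyd4 stood at 0.19 TPM from 6 counts and at 6.87 TPM from 114 counts. Fxyd1 had 0 counts in library 1, where the floor of 3 counts equals 0.246 TPM and the deposited credibility interval reaches 0.517 TPM, and 65 counts or 11.34 TPM in library 2. Exact Poisson 95% intervals on the library 1 counts ran from 4.12 to 17.1 for Fxyd5, from 2.2 to 13.1 for Fxyd4 and from 0 to 3.69 for Fxyd1. These intervals and the floor cover counting error only.

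Marker sums of cell types that could carry these minor members differed between the libraries too. Smooth muscle markers (3 of 3 higher in library 2 by the test given below) summed to 7.49 and 126 TPM. The 3 skeletal and heart muscle markers summed to 0 and 0.82 TPM. Of these Myh6, with 0 and 56 counts, was called higher in library 2, and the others had too few counts to be tested. Principal cell markers, of the collecting duct segment for which Fxyd4 is known, summed to 14.6 and 272 TPM. Of these 3 of 3 were called higher in library 2, a direction called for 35.7% of all genes tested. With the trend on GC content removed, as described below, 0 of those 3 were called (Aqp2 0.20, Aqp3 -0.05 and Scnn1b -0.42 as log2 ratios). Of the smooth muscle markers Tagln was then called at 1.49, Myh11 was not at 0.39, and Acta2 had no GC value. Myh6 was called at 3.21, from 0 counts in library 1. Leukocyte markers summed to 8.05 and 26.6 TPM, of which Lyz2 made up 5.31 and 23.84 TPM and was not called. Ptprc stood at 2.71 and 2.61 TPM and was called higher in library 1, at a log2 ratio of -1.52. With the GC trend removed Ptprc was not called, at 0.02, and Lyz2 was called higher in library 2, at 1.09. The part of these cell types in the levels of Fxyd1, Fxyd4 and Fxyd5 was not tested. Both libraries are technical replicates of 1 biological replicate, so these marker differences lie between libraries. In bulk tissue a marker level also does not separate the number of cells from the RNA per cell.

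**Figure D1:**
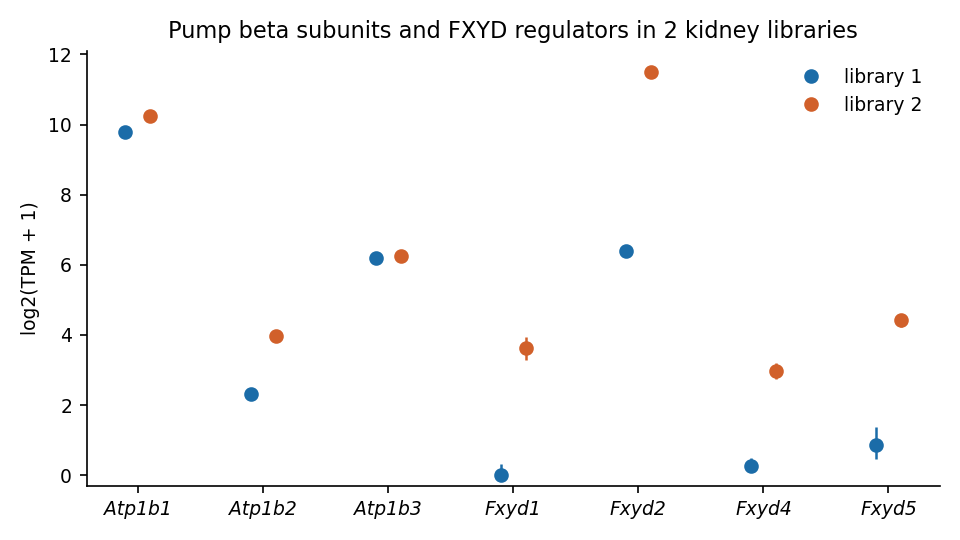
Level of each member as log2(TPM + 1) in library 1 (blue) and library 2 (orange); vertical lines are exact Poisson 95% intervals of the counts carried to the same scale, and the line for Fxyd1 in library 1 is the floor of 3 counts. Atp1b1 and Atp1b3 nearly coincide between the libraries, while the 4 FXYD genes and Atp1b2 lie higher in library 2.

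The order of the members was not the same in the libraries. In library 1 Atp1b1 was followed by Fxyd2, Atp1b3, Atp1b2, Fxyd5, Fxyd4 and Fxyd1. In library 2 Fxyd2 came first, then Atp1b1, Atp1b3, Fxyd5, Atp1b2, Fxyd1 and Fxyd4. Within library 1 the deposited credibility intervals of TPM separated Fxyd2 (76.6 to 86) from Atp1b3 (68.3 to 72.9), but Fxyd4 at 0.19 TPM lay under the floor of Fxyd1. Within library 2 the intervals of Atp1b2 (12.2 to 16.2) and Fxyd1 (8.41 to 13.6) overlapped, and that of Fxyd4 (5.34 to 7.72) lay under both. Its credibility level was not stated.

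The main gene of each family was the same in both libraries. Atp1b1 made up 92.1% of the summed TPM of the 3 beta subunits in library 1 and 93.1% in library 2, or 92.6% ± 0.659 (SD, n = 2). Atp1b3 made up 7.47% and 5.83%, and Atp1b2 0.41% and 1.12%. The ratios among the beta subunits moved more than a share near its upper limit can show. Atp1b1 over Atp1b2 was 224 in library 1 and 83 in library 2, Atp1b3 over Atp1b2 was 18.2 and 5.19, and Atp1b1 over Atp1b3 was 12.3 and 16. Fxyd2 made up 98.8% and 98.7% of the summed TPM of the 4 FXYD members, or 98.7% ± 0.0708 (SD, n = 2). Fxyd4 made up 0.225% and 0.233%, Fxyd5 0.981% and 0.69%, and Fxyd1 0% and 0.384%. With 6, 9 and 0 counts behind the library 1 shares of these 3, neither closeness nor a difference can be read from them. The balance between the families differed between the libraries. The beta subunits summed to 965 and 1301 TPM and the FXYD members to 84.6 and 2953 TPM, so the FXYD sum was 0.0877 times the beta sum in library 1 and 2.27 times in library 2. Fxyd2 alone stood at 0.094 and 2.41 times Atp1b1. Which of the 2 ratios is nearer to that of the tissue cannot be told from these libraries.

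Atp1b1 and Atp1b3 were each carried almost wholly by 1 transcript, while Atp1b2 and Fxyd5 were divided. Atp1b1-201 held 99.98% and 99.05% of Atp1b1, and Atp1b3-201 held 99.69% and 100% of Atp1b3. Atp1b2-201, the protein-coding form of 2842 bases, held 89.48% of Atp1b2 in library 1 and 72.01% in library 2. Most of the remainder went to Atp1b2-204, a processed transcript of 711 bases with no coding sequence in the annotation, at 8.81% and 23.82%. Those shares of Atp1b2-204 rest on 5.59 and 29.74 expected counts. Fxyd2 and Fxyd4 each have 1 transcript in the M4 annotation that the authors used, against 13 and 9 in M21, so the tables cannot show their isoforms. The 65 counts of Fxyd1 in library 2 were all assigned to Fxyd1-203, and by posterior mean TPM its share there was 89.32%. Fxyd1 has 3 transcripts in M4 against 17 in M21, so other forms cannot be seen.

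Fxyd5 was the member with the most divided transcript estimate. The M4 annotation lists 12 transcripts for it, not all of which received counts. In library 2 Fxyd5-209 took 33.84%, Fxyd5-203 took 21.41%, Fxyd5-201 took 17.55%, Fxyd5-211 took 12.19% and Fxyd5-207 took 9.01%. The deposited credibility interval of Fxyd5-209 ran from 0.647 to 8.54 TPM around an estimate of 6.89 TPM, so its place above the others was not settled by 212 counts. In library 1 the estimate gave 86.04% to Fxyd5-211 and 13.95% to Fxyd5-210. With 9 counts behind the whole gene there, a difference in Fxyd5 transcripts between the libraries was not detectable at this depth.

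**Figure D2:**
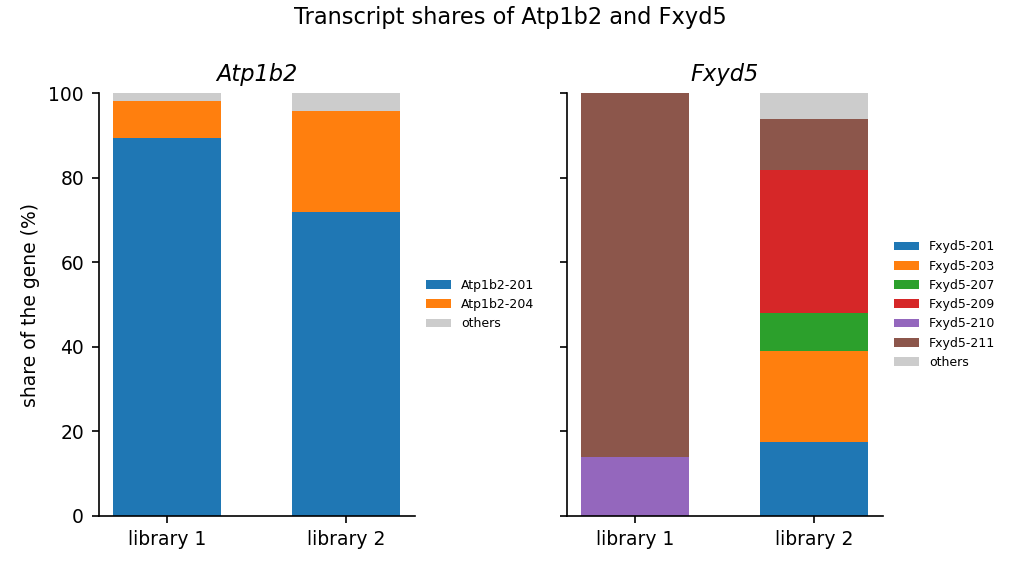
Deposited share (%) of each transcript in Atp1b2 (left) and Fxyd5 (right), as stacked bars per library, with transcripts of at least 5% in 1 library in colour and the rest in grey. Atp1b2-201 leads in both libraries, whereas Fxyd5 is divided among many transcripts in library 2 and rests on 9 counts in library 1.

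The libraries were next compared gene by gene. After TMM scaling, which sets the typical gene near a ratio of 1, each gene with at least 10 counts was tested with a two-sided exact conditional binomial test, adjusted by the Benjamini-Hochberg method over 15553 genes. A gene was called when its adjusted p was under 0.05 and it differed at least 2-fold. This test compares 2 libraries and not conditions, and it knows only counting error. Of all genes tested, 60.8% were called. The share of all tested genes called with the higher value in library 2 was 35.7%, and in library 1 it was 25.2%, so a call was the common outcome. Of the 7 members 5 were called, 4 of them higher in library 2 and 1 higher in library 1. Their median log2 ratio of library 2 over library 1 was 3.68, also with Fxyd1 placed at its bound, against 0.12 over all genes tested.

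The 4 called higher in library 2 were the 4 FXYD members. Fxyd2 was 13.6-fold higher by scaled counts (95% exact interval 12.8 to 14.4), Fxyd4 was 13.9-fold higher (6.17 to 38.5) and Fxyd5 was 17.2-fold higher (8.88 to 38.1). Fxyd1 was at least 15.8-fold higher with its library 1 count of 0 set to the floor of 3, and the lower bound of its exact interval was 12.5-fold. Adjusted p from the exact test was 4e-20 for Fxyd4, 1.6e-38 for Fxyd5 and 1.1e-15 for Fxyd1, and that of Fxyd2 was too small for the calculation to resolve. The beta subunits behaved differently from one another. Atp1b3 was higher in library 1, at a log2 ratio of -1.29 with a counting error of 0.038 (exact test, adjusted p = 1.2e-262). Atp1b1 had a ratio of 0.526 (0.52 to 0.532), which differed beyond counting error but by less than the 2-fold limit. Atp1b2 had a log2 ratio of 0.36 (exact test, adjusted p = 0.00071) and was not called either.

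For Atp1b1 and Atp1b3 the scaled counts and the TPM pointed in opposite directions. Atp1b1 was 1.36 times as high in library 2 by TPM and 0.526 times as high by scaled counts. With mitochondrial genes and their copies left out of the TPM sum, Atp1b1 stood at 3489 and 1908 TPM and Atp1b3 at 283 and 119 TPM, both higher in library 1. On the same sum Fxyd2 stood at 328 and 4593 TPM and Atp1b2 at 15.5 and 23 TPM, both higher in library 2 still. Scaled to total counts, the log2 ratio of Atp1b1 was -0.02, that of Atp1b3 was -0.38 and it was not called, while that of Atp1b2 was 1.27 and it was called; the median over all genes then moved from 0.12 to 1.03. On that scale 7681 genes were called higher in library 2 and 718 in library 1, against 5545 and 3918 after TMM scaling.

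Base composition moved with the library ratio over the whole table, and the members were spread along it. Among genes with at least 100 counts and a reference transcript, the median log2 ratio was -0.50 for 2997 genes at 45% to 50% GC, 1.04 for 3013 genes at 50% to 55% and 3.51 for 2247 genes at 55% to 60%. Atp1b1 (49.5% GC) and Atp1b3 (47.7%) belong to the first of these classes, and their ratios lay below its lower quartile of -0.90. Atp1b2 (52.4%) lay near the lower quartile of its class, 0.34. Fxyd2 (57.6%) lay between the quartiles of its class, 2.37 and 4.84. Fxyd4 (50.6%) and Fxyd5 (53.9%), at 3.68 and 4.03, lay above the upper quartile of theirs, 1.92.

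GC content also varied along the transcripts. In windows of 100 bases Atp1b1 ranged from 20% to 83% and Atp1b3 from 26% to 86%, with the high values near the start. Fxyd1 ranged from 49% to 65% and Fxyd2 from 49% to 66%, and windows of at least 60% GC made up 47.5% and 46.3% of these short transcripts of 492 and 632 bases. Such windows made up 19.7% of Atp1b1, 15.3% of Atp1b3 and 0.909% of Fxyd4.

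**Figure D3:**
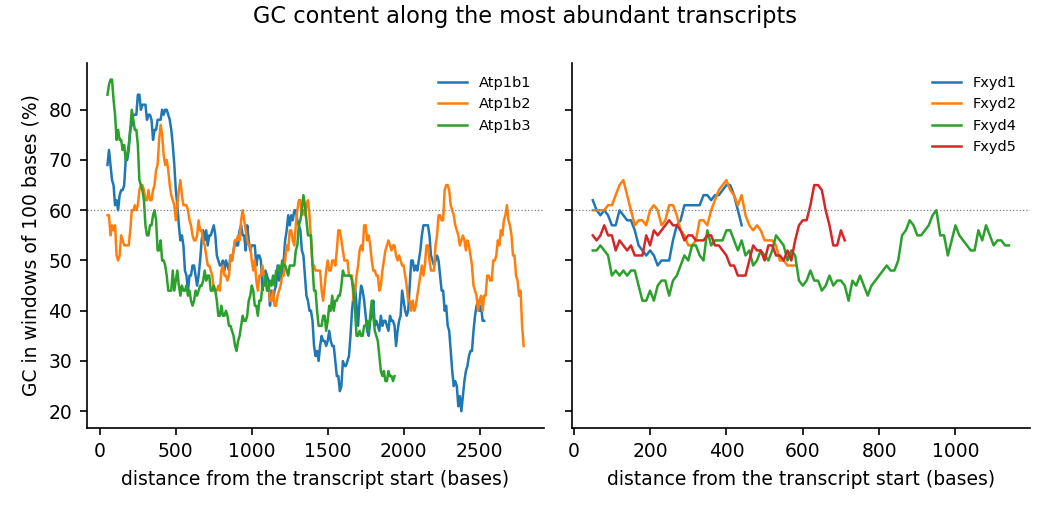
GC content (%) in windows of 100 bases against distance from the transcript start in bases, for the main transcripts of the beta subunits (left) and the FXYD members (right); the dotted line marks 60%. Atp1b1 and Atp1b3 reach 83% and 86% near the start and fall to 20% and 26%, while Fxyd1 and Fxyd2 stay between 49% and 66%.

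When the smooth trend of the ratio on GC content was removed, 22.3% of 14824 genes were called, 11.4% in favour of library 2 and 10.9% in favour of library 1. Of the members, Fxyd4 and Fxyd5 were then called, both higher in library 2. Fxyd4 kept a log2 ratio of 3.30 (exact test, adjusted p = 6.7e-15) and Fxyd5 one of 2.27 (exact test, adjusted p = 6.2e-09), from 6 and 9 counts in library 1. Fxyd2 went to -0.02 (exact test, adjusted p = 0.76). Fxyd1 was no longer called (exact test, adjusted p = 0.12), Atp1b3 stood at -0.85 and Atp1b1 at -0.96. Atp1b2 changed sign, to -0.67 (exact test, adjusted p = 2.1e-09).

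The residual of Fxyd5 depended on which transcript supplied the GC value. Its 11 protein-coding transcripts in M21 run from 51.6% to 57.3% GC, and with the GC-richest of them its log2 ratio was 0.42 (exact test, adjusted p = 0.49). The coding transcripts of Fxyd4 run from 50.6% to 52.9%, and with the GC-richest it stayed at 2.43 (exact test, adjusted p = 2.3e-07). With the same choice Fxyd2 stood at -0.86, and Atp1b1 at -1.60 passed the 2-fold limit. The transcript that supplied the GC value of Atp1b1 there, Atp1b1-203, held 0.02% and 0.45% of the gene. That of Fxyd5, Fxyd5-207, held 0% and 9.01% of its gene. Those of Fxyd2 and Fxyd4, Fxyd2-207 and Fxyd4-203, are not in the M4 annotation, so their shares are unknown. This choice of transcript was added after the values had been seen.

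**Figure D4:**
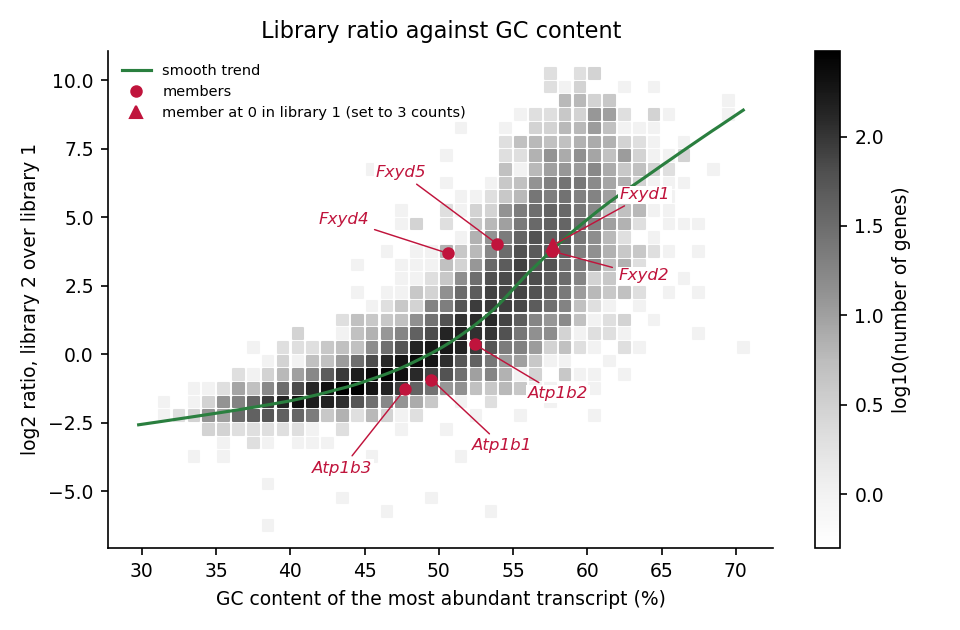
Log2 ratio of library 2 over library 1 after TMM scaling against GC content of the most abundant transcript (%); grey squares count genes with at least 100 counts on a log10 scale, the green line is the smooth trend, red points are members and the triangle is Fxyd1 with its library 1 count set to the floor of 3. Fxyd2 lies on the trend, Fxyd4 and Fxyd5 lie above it and the 3 beta subunits lie below it.

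Other genes of the pathway were taken from lists that left aside the members. Of 26 genes 21 were tested, and 12 were called, all 12 of them with the higher value in library 2. Over all genes tested 60.8% were called and 35.7% were called in that direction. The median log2 ratio of the 21 was 1.98 (1.90 with genes at 0 placed at their bound). With the GC trend removed 4 of the 20 with a GC value were called, 3 of them higher in library 2. Over all genes tested in that way 22.3% were called, and 11.4% were called higher in library 2. Among the other beta and FXYD genes, Fxyd6 stood at 0.16 and 5.05 TPM and Fxyd3 at 0.22 and 1.81 TPM, and both were called. Fxyd3 rested on 2 and 13 counts. Its TPM estimates lay under their deposited credibility intervals, 0.563 to 19.5 and 2.23 to 31.4. With the GC trend removed neither Fxyd6 nor Fxyd3 was called, at log2 ratios of 0.28 and 1.45. Fxyd7 had 0 and 3 counts, and Atp1b4, the fourth beta gene, was at 0 in both libraries. Of the related proton-potassium pumps, Atp4a stood at 1.5 and 21.54 TPM and was called, Atp12a at 0.03 and 0.13 TPM, and Atp4b at 0. Of the NKAIN genes, which encode proteins that interact with beta subunits, Nkain1 stood at 0.04 and 12.1 TPM, while Nkain2, Nkain3 and Nkain4 stayed under a mean of 1 TPM. Nkain1 and Nkain4 were called, from 1 and 0 counts in library 1. With the GC trend removed neither was called, at log2 ratios of 0.34 and 2.46. Atp4a was then not called either, at -0.41.

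Of the genes for anchoring and hormonal control of sodium transport, 1 of 6 was called by scaled counts, against 60.8% of all genes tested. The other 5 had log2 ratios from -0.77 (Nr3c2) to 0.13 (Sptbn1) on that scale, while their TPM were higher in library 2. Ank3, which encodes the ankyrin that tethers membrane proteins to spectrin, stood at 35.78 and 51.14 TPM, and the spectrin gene Sptbn1 at 64.02 and 118.55 TPM. The aldosterone-induced kinase gene Sgk1 stood at 39.21 and 90.62 TPM, the ubiquitin ligase gene Nedd4l at 5.83 and 14.72 TPM and the mineralocorticoid receptor gene Nr3c2 at 3.73 and 5.92 TPM. Hsd11b2, which encodes the enzyme that shields that receptor from glucocorticoids, was higher in library 2, at 9.6 and 111.63 TPM, with a log2 ratio of 2.18 (exact test, adjusted p = 2.9e-290). With the GC trend removed it was called in the other direction, at -1.70. Outside that list, the pterin dehydratase gene Pcbd1 stood at 117.66 and 360.62 TPM and was not called.

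The apical sodium transporters, through which the sodium moved by the pump enters the cell, were called higher in library 2 for 6 of 8, against 35.7% of all genes tested. Slc12a1, the cotransporter of the thick ascending limb, stood at 399.58 and 568.39 TPM and was not called, nor was the channel subunit gene Scnn1g at 4.74 and 22.32 TPM. Those called were the proximal exchanger and cotransporter genes Slc9a3 (3 and 39.02 TPM), Slc34a1 (93.51 and 1337 TPM) and Slc5a2 (6.67 and 225.07 TPM), the distal cotransporter gene Slc12a3 (3.98 and 260.8 TPM), and the channel subunit genes Scnn1a (4.17 and 57.12 TPM) and Scnn1b (3.14 and 30.21 TPM). With the GC trend removed Slc9a3, Slc5a2 and Slc12a3 were called, at log2 ratios of 1.10, 1.21 and 1.99. Of all genes tested in that way 11.4% were called higher in library 2. Scnn1a and Scnn1b changed sign, to -0.50 and -0.42, and were not called, and Slc34a1 had no GC value.

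The protein-coding genes nearest to a member in level were found by distance in log2(TPM + 1) over the 2 libraries. For Atp1b1 they were Keg1 (916.65 and 1160.7 TPM), the ribosomal protein gene Rps24 (1027.97 and 1176.39 TPM) and the respiratory chain gene Ndufa4 (782.13 and 1425.23 TPM). Their GC content was 45.2%, 48.1% and 45.7%, against 49.5% for Atp1b1. For Fxyd2 they were the protease gene Napsa (116.55 and 3401.13 TPM), the inositol oxygenase gene Miox (63.54 and 2195.67 TPM) and the phosphate cotransporter gene Slc34a1. Napsa and Miox had 54.9% and 54.5% GC, and Slc34a1 had no value. The likeness rests on 2 libraries of 1 tissue.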

How the data were processed

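The gene tables and transcript tables refer to mm10 and annotation M4, per the notes deposited with them. The aligner and the quantifier were not stated. Per the file headers the authors deposited expected counts, not normalized and rounded here, TPM and FPKM values, transcript shares as a percent, and the bounds of a credibility interval as a TPM signal. Depth per library stands in the report.

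Library sizes were scaled by TMM (edgeR 4.0.16) from genes with at least 10 counts. That gene set was taken after values had been seen, in place of factors from all genes. The exact test (scipy 1.17.1) used a prior count of 0.5 in the log2 ratio. A quasi-likelihood fit was not possible with 1 library on each side. The GC trend was a lowess fit (statsmodels 0.14.6, span 20%) over the 11527 genes of known GC content that reached 100 counts, 95.7% of all genes at that depth. GC content came from GENCODE M21 transcripts within 10% of the deposited length. Shared sequence was searched with blastn 2.17.0 and coding sequences were translated with Biopython 1.88. The test and the trend were run on simulated data with counting noise only and a straight GC trend. Such data lack the wide differences between these libraries, so the run does not show how either behaves here. Symbols from M21 matched 42462 gene rows.

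Named were all members, transcripts with at least 5% of a member, genes of the pathway lists with a mean of at least 1 TPM, the others by name, and the 3 genes nearest in level to Atp1b1 and Fxyd2. The members and lists were chosen with earlier results of these data known. Some genes of the lists fixed for this work are not reported here, and the counts over the lists leave them out. Alternatives were DESeq2 1.42.0 size factors, total counts, no count minimum, posterior mean values, a prior count of 2, mitochondrial genes left out, the GC trend removed, and FPKM.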

Additional observations from a re-analysis of the deposited data

How the results depend on the processing

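The members' calls were recomputed under 9 alternatives. With the GC trend removed 2 members were called, both (2) in favour of library 2 and 0 in favour of library 1, and the log2 ratio of Atp1b2 changed sign to -0.67 while that of Fxyd2 went to -0.02 (exact test, adjusted p = 0.76), not distinguishable from 0. With the GC-richest coding transcript, chosen after seeing the data, 2 were called, Fxyd4 in favour of library 2 and Atp1b1 in favour of library 1. The log2 ratios of Atp1b2 and Fxyd2 were then -0.67 and -0.86. With total counts 0 members were called higher in library 1. TMM factors from all genes, the values first computed, gave the same 4 and 1 calls among members, and 9371 calls over all genes against 9463. Posterior mean TPM put Fxyd2 at 98.1% of the FXYD sum. Without 1 replicate a mean is the value of the other library, from 83.5 to 2915 TPM for Fxyd2. No paired analysis was possible because there is 1 group. Depth limits Fxyd1, Fxyd4 and Fxyd5 in library 1, with 0, 6 and 9 counts.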
